A study of Mus musculus with 13 samples.

Results

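The 9 genes described here encode the 4 signalling receptors for fibroblast growth factors (Fgfr1, Fgfr2, Fgfr3 and Fgfr4) and 5 inhibitors that feed back on them (Spry1, Spry2, Spry4, Spred1 and Spred2). They were chosen by name, and all 9 were found by symbol among the 24411 genes of the bulk table and in both single-cell tables, which list 14601 and 14164 genes. All samples came from skeletal muscle of wild-type C57BL/6 mice aged 2 months. The bulk samples were Smart-seq2 libraries, a protocol that copies full-length cDNA from little polyA RNA. The sorted populations were MuSC, the muscle stem cells labelled quiescent, sorted as CD31-, CD45-, Sca1-, Vcam1+ and ITGA7+ (n = 2), and SMMC, labelled smooth-muscle/mesenchymal-like cells, which share those markers except that they are Vcam1- (n = 3 when fresh). SMMC were also cultured for 3 days and are called proliferating here, after their label (n = 3), or were cultured and left to differentiate for a time not given in the labels (n = 3). The remaining 2 libraries were 10x droplet single-cell libraries of mononuclear cells from uninjured hindlimb muscle.

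An FGF that binds its receptor, held in place by heparan sulfate, makes the receptor phosphorylate itself and the adaptor Frs2, and the signal runs through Grb2, Sos and Ras to the kinases Mek and Erk. Erk activity switches on transcription of Sprouty genes, whose proteins dampen the same route, while Spred proteins bring the Ras inhibitor neurofibromin to the membrane. In skeletal muscle, Fgfr1 and Fgfr4 are the receptors best known from stem cells, and Spry1 is known as a gene that keeps those cells quiescent.

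The bulk values are FPKM, read fragments divided by transcript length and by the size of the library, so levels of different genes can be set side by side. Means are given ± SD, with n = 3 for each SMMC group and n = 2 for MuSC. The read depth is unknown. Differences were tested on log2(FPKM + 1), which understates the change of low genes, with limma over 13233 genes in one fit of all 11 libraries, and p-values are Benjamini-Hochberg adjusted over those genes with a threshold of 0.05. All 9 members passed the filter of 1 FPKM in 2 libraries, Fgfr2 through fresh SMMC alone, so its tests against that group depend on the filter and the counts are also given without it. In a bulk sample, fewer cells of a type and less RNA per cell cannot be told apart. Whether libraries of one group came from separate animals is not stated in the labels, and the p-values cover no more than the spread among these libraries, which could be technical.

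The sorted groups were checked against marker genes. The stem cell gene Pax7 stood at 19.8 ± 0.65 FPKM in MuSC and 1.17 ± 0.74 in fresh SMMC, and the summed stem cell list of 10 genes ran from 28660 to 41320 FPKM in MuSC against 798 to 1123 in fresh SMMC. Most of that sum was Sdc4, a syndecan, and the other 9 genes summed to between 2959 and 4467 FPKM in MuSC and 374 to 613 in fresh SMMC. Chodl, of the same list, ran the other way, with a mean of 331 ± 74.5 FPKM for fresh SMMC against 133 ± 9.54 for MuSC. The smooth muscle list of 7 genes summed to between 1172 and 1766 FPKM in fresh SMMC and 51.7 to 104 in MuSC. Fresh SMMC also carried markers of other cell types. The tenocyte list of 7 genes summed to between 8825 and 18070 FPKM, the fibro-adipogenic progenitor list of 9 genes to between 3807 and 6709 and the pericyte list of 9 genes to between 1479 and 3817, and no gene of these 3 lists was under 1 FPKM in all fresh SMMC libraries. In proliferating SMMC these 3 lists summed to at most 16.9, 38.3 and 17.0 FPKM. In MuSC they ran from 10.8 to 19.8, 696 to 818 and 102 to 108 FPKM. Dpt, of the fibro-adipogenic progenitor list, ran the other way, with a mean of 461 ± 8.91 FPKM for MuSC against 37.8 ± 2.35 for fresh SMMC. Smaller sums in fresh SMMC came from red blood cell (5 genes, 332 to 885 FPKM), Schwann cell (8 genes, 272 to 464) and endothelial markers (8 genes, 120 to 215). Those lists were at 6.85 to 13.2, 5.91 to 7.27 and 5.67 to 5.69 FPKM in MuSC.

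Fgfr1 was the most abundant of the 4 receptors in every group. Fgfr1, at 25518759 to 25575718 on chromosome 8 (GRCm38.p6), read 348 and 307 FPKM in the 2 MuSC libraries. The 3 fresh SMMC libraries read 163, 150 and 119 FPKM, the proliferating ones 13.6, 24.5 and 23.4, and the differentiating ones 43.9, 48.4 and 18.8. MuSC lay above all SMMC libraries, fresh SMMC above all cultured ones, and the proliferating and differentiating groups overlapped. Fgfr1 was 2.28-fold lower in fresh SMMC than in MuSC (log2 difference -1.19, SE 0.36, adjusted p = 0.0136). It was a further 6.90-fold lower in proliferating than in fresh SMMC (log2 difference -2.79, SE 0.33, adjusted p = 9.39e-06). The difference between differentiating and proliferating SMMC did not pass (log2 difference 0.76, SE 0.33, adjusted p = 0.0839). Without differentiating replicate 3, the low library, that difference was 1.18 with an adjusted p of 0.00393. The difference from MuSC also rested on both MuSC libraries: its adjusted p was 0.0847 without replicate 1 and 0.0518 without replicate 2.

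Fgfr4, a receptor known from myogenic progenitors, followed another order. Fgfr4 (chromosome 13, 55152818 to 55168759) stood at 30.1 and 30.8 FPKM in MuSC. It read 2.2, 7.59 and 4.88 FPKM in fresh, 6.57, 9.28 and 12.8 in proliferating and 5.71, 2.44 and 9.17 in differentiating SMMC. Both MuSC libraries were above all 9 SMMC libraries, and the 3 SMMC groups overlapped one another. Fgfr4 was 5.78-fold lower in fresh SMMC than in MuSC (log2 difference -2.53, SE 0.47, adjusted p = 0.000498). Between proliferating and fresh SMMC the log2 difference was 0.91 (SE 0.42, adjusted p = 0.0693). It passed under quantile normalization (adjusted p = 0.0199), without fresh SMMC replicate 2 (0.0296) and without proliferating replicate 1 (0.0476).

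The remaining receptors were low. Fgfr3 (chromosome 5, 33721724 to 33737068) was 3.77 and 5.20 FPKM in MuSC, 5.50, 2.93 and 4.47 in fresh SMMC, 0.826, 1.52 and 2.53 in proliferating SMMC and 4.48, 3.42 and 6.10 in differentiating SMMC. The proliferating libraries lay below all others, and the remaining 3 groups overlapped. It was 2.05-fold lower in proliferating than in fresh SMMC (adjusted p = 0.00754) and 2.2-fold higher in differentiating than in proliferating SMMC (log2 difference 1.14, SE 0.29, adjusted p = 0.00839). The lower level in culture did not pass under quantile normalization (adjusted p = 0.113). Between fresh SMMC and MuSC the log2 difference was -0.07 (SE 0.33, adjusted p = 0.873). That difference was -0.87 (adjusted p = 0.0416) under quantile normalization and had the opposite sign without fresh SMMC replicate 2 (0.13) and without MuSC replicate 2 (0.12).

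Fgfr2 (chromosome 7, 130162451 to 130266808), a receptor best known from epithelia, was at or below 2.25 FPKM in every library. It read 0.447 and 0.618 FPKM in MuSC, 2.02, 2.25 and 0.651 in fresh SMMC, 0.0597, 0.0201 and 0.0267 in proliferating and 0, 0.457 and 0.0639 in differentiating SMMC. Fresh SMMC was the highest group, although its lowest library was close to the higher MuSC library (0.651 against 0.618 FPKM). Since the gene entered the fit through fresh SMMC alone, its differences from that group are given as descriptions. The log2 difference was -1.29 (SE 0.24) between proliferating and fresh SMMC. The difference of 0.73 (SE 0.27) between fresh SMMC and MuSC had an adjusted p of 0.0358, which rose above the threshold with a pseudocount of 0.1 (0.133), without the filter (0.0684), under TMM (0.16) and quantile (0.837) scaling, with only those groups fitted (0.089) and without any one of fresh replicates 1 and 2 or MuSC replicates 1 and 2 (0.09 to 0.161).

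**Figure D1:**
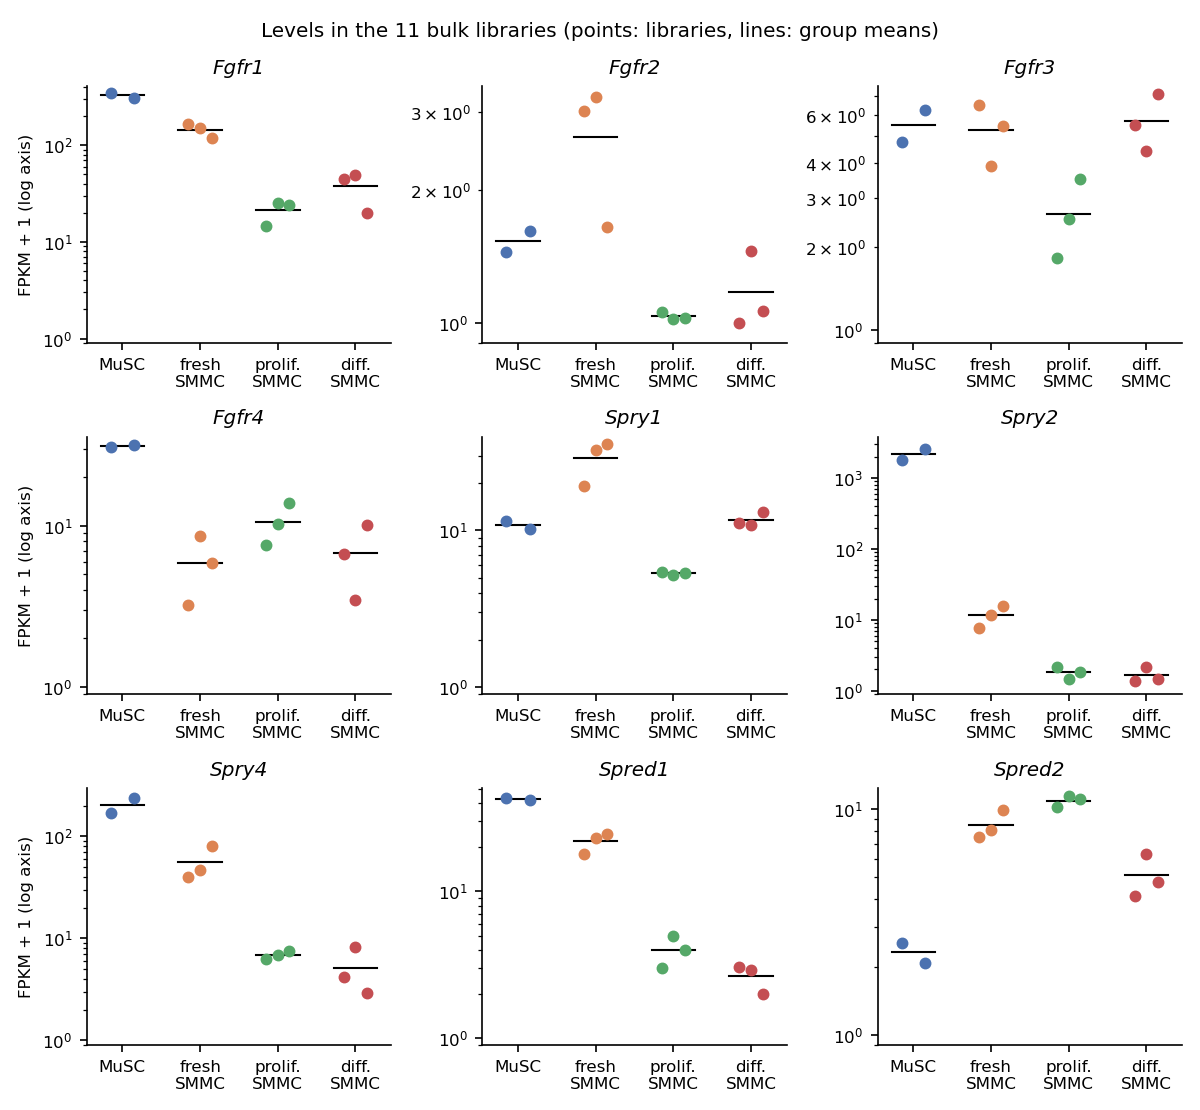
FPKM + 1 on a log axis for the 9 genes in each bulk library (points), with the group mean as a line, for MuSC, fresh SMMC, proliferating SMMC and differentiating SMMC. Fgfr1 is at 348 and 307 FPKM in MuSC and between 13.6 and 24.5 in proliferating SMMC, while Spred2 is lowest in MuSC.

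Spry1 (chromosome 3, 37639947 to 37644599) was the Sprouty gene that MuSC held at a lower level than fresh SMMC. It read 10.5 and 9.15 FPKM in MuSC, 18.2, 31.6 and 34.9 in fresh SMMC, 4.41, 4.20 and 4.35 in proliferating SMMC and 10.1, 9.82 and 12.2 in differentiating SMMC. Fresh SMMC lay above all other libraries, proliferating SMMC below them, and MuSC and differentiating SMMC overlapped. Spry1 was 2.62-fold higher in fresh SMMC than in MuSC (log2 difference 1.39, SE 0.26, adjusted p = 0.000597). It fell 5.31-fold in proliferating SMMC (log2 difference -2.41, SE 0.23, adjusted p = 1.92e-06) and was 2.19-fold higher again in differentiating SMMC (log2 difference 1.13, SE 0.23, adjusted p = 0.0021).

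Since Spry1 and Spry2 differed in opposite directions between the sorted populations, their upstream sequences are shown, with that of Spred1, which differed in the same direction as Spry2. Each run is the 250 bases before the RefSeq transcription start (RefSeq, GRCm38.p6), written 5′ to 3′ along the gene, with CG pairs in capitals. Spry1 is at chr3:37639697-37639946 on the plus strand, Spry2 at chr14:105896820-105897069 on the minus strand and Spred1 at chr2:117120821-117121070 on the plus strand.
Spry1: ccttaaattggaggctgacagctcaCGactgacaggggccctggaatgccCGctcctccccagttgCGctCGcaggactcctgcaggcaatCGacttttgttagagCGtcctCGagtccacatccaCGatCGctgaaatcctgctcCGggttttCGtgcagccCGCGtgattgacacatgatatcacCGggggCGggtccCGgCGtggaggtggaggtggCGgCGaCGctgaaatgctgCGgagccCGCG
Spry2: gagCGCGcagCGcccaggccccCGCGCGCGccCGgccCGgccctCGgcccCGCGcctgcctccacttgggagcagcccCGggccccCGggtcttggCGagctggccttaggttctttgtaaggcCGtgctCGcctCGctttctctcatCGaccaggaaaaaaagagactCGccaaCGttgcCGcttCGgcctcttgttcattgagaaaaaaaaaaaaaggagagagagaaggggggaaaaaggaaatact
Spred1: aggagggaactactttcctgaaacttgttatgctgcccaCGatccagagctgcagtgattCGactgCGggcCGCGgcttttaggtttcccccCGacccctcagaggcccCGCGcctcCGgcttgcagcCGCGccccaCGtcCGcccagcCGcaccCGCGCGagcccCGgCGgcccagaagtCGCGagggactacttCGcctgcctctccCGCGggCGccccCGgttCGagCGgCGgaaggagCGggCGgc
Spry1 and Spry2 each hold 23 CG pairs and 62.4% G or C, and 13.3% of the 32851 promoters in the RefSeq table hold as many CG pairs. Spred1 holds 31 CG pairs and 70.8% G or C, and 5.19% of promoters hold as many, against a median of 6 over all promoters. In Spry2, 15 of the 23 lie in the 125 bases farther from the start and 8 in the nearer 125, while Spry1 has 7 and 16. Spred1 has 9 and 22, a layout like that of Spry1, although its bulk difference went the way of Spry2. The same 250-base windows, available for 7 of the 9 genes, were searched on both strands for an E-box (CAGCTG), an ETS site (CCGGAA), an AP-1 site (TGANTCA), a cyclic AMP response element (TGACGTCA) and an RBPJ site (GTGGGAA). These stand in 13.0%, 12.0%, 6.75%, 1.55% and 5.42% of all promoters. The E-box was found in 1 of the 2 promoter entries of Fgfr3, 97 to 92 bases before the start. The ETS site was found in Fgfr4, 178 to 173 bases before the start. The matches did not overlap, and the windows of the other 5 genes held none of these letters.

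Spry2 (chromosome 14, 105891947 to 105896819) gave the widest range of the 9 genes. It stood at 1768 and 2598 FPKM in MuSC. The fresh SMMC libraries read 6.67, 10.6 and 14.4 FPKM, the proliferating ones 1.15, 0.448 and 0.864, and the differentiating ones 0.381, 1.15 and 0.465. MuSC lay above all SMMC libraries by 2 orders of magnitude, fresh SMMC above all cultured libraries, and the cultured groups overlapped. Spry2 was 193-fold lower in fresh SMMC than in MuSC (log2 difference -7.59, SE 0.33, adjusted p = 7.44e-09) and 6.19-fold lower in proliferating than in fresh SMMC (log2 difference -2.63, SE 0.29, adjusted p = 6.04e-06). In the single-cell libraries described below, muscle stem cell-like cells had less Spry2 than pericyte-like cells, and the high bulk MuSC values were not checked on reads. The differentiating and proliferating groups gave a log2 difference of -0.14 (SE 0.29, adjusted p = 0.757).

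Spry4 shared that order of groups at a smaller range. It read 167 and 238 FPKM in MuSC, 39.3, 46.2 and 78.9 in fresh SMMC, 5.22, 5.89 and 6.46 in proliferating SMMC and 3.21, 7.31 and 1.94 in differentiating SMMC. The MuSC, fresh and cultured libraries did not overlap, and the cultured groups overlapped each other. Spry4 was 3.76-fold lower in fresh SMMC than in MuSC (log2 difference -1.91, SE 0.39, adjusted p = 0.00116). It was 7.80-fold lower in proliferating than in fresh SMMC (log2 difference -2.96, SE 0.35, adjusted p = 1.07e-05). The log2 difference of -0.55 (SE 0.35) from proliferating to differentiating SMMC did not pass (adjusted p = 0.248), but did without differentiating replicate 2 (0.0278).

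The 2 Spred genes differed in opposite directions between fresh SMMC and MuSC. Spred1 (chromosome 2, 117121071 to 117182279) stood at 42.4 and 41.1 FPKM in MuSC, 17, 22 and 23.8 in fresh SMMC, 2.00, 3.98 and 2.99 in proliferating SMMC and 2.04, 1.91 and 1.00 in differentiating SMMC. As with Spry2, MuSC was highest, fresh SMMC lay between, and the cultured groups overlapped. Spred1 was 1.97-fold lower in fresh SMMC than in MuSC (log2 difference -0.98, SE 0.28, adjusted p = 0.00861; 0.0514 without MuSC replicate 1) and 5.56-fold lower in proliferating than in fresh SMMC (log2 difference -2.48, SE 0.25, adjusted p = 2.38e-06). Its log2 difference of -0.58 (SE 0.25) from proliferating to differentiating SMMC had an adjusted p of 0.0786, and passed under quantile normalization (0.0215) and without proliferating replicate 1 (0.028).

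Spred2 (chromosome 11, 19924442 to 20024026) was the only one of the 9 genes that was lowest in MuSC. It read 1.55 and 1.09 FPKM there, 6.52, 7.09 and 8.89 in fresh SMMC, 9.21, 10.4 and 10.1 in proliferating SMMC and 3.12, 5.35 and 3.77 in differentiating SMMC. None of the 4 groups overlapped another. Spred2 was 3.66-fold higher in fresh SMMC than in MuSC (log2 difference 1.87, SE 0.25, adjusted p = 3.52e-05). It was 2.18-fold lower in differentiating than in proliferating SMMC (log2 difference -1.12, SE 0.22, adjusted p = 0.00148). Between proliferating and fresh SMMC the log2 difference was 0.37 (SE 0.22, adjusted p = 0.157; 0.0442 under quantile normalization).

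Seen by comparison, fresh SMMC against MuSC had 8 of the 9 genes past the threshold, 3 higher (Fgfr2, Spry1 and Spred2) and 5 lower (Fgfr1, Fgfr4, Spry2, Spry4 and Spred1). Over all genes tested, 59.7% passed, 41.7% higher and 18% lower, so a count of 8 in either direction is read against a high background. Without Fgfr2 the counts were 2 higher and 5 lower of 8. The median log2 difference was -0.98 over the 9 genes and 0.45 over all genes tested. That overall shift was 0.04 under TMM scaling and -0.04 under quantile normalization, where the genes called split into 4125 higher and 3924 lower, and 3737 higher and 4027 lower, in place of 5522 and 2384. Without MuSC replicate 1 the count of members was 5.

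Proliferating against fresh SMMC had 7 members lower and none higher, or 6 of 8 lower without Fgfr2. Of all genes tested 68.5% passed, 33.1% higher and 35.4% lower. The median log2 difference was -2.41 over the members and -0.06 over all genes tested. The 2 that did not pass, Fgfr4 and Spred2, had higher means in culture. The marker sums of tenocytes, fibro-adipogenic progenitors and pericytes, and a list of 10 immediate early and heat shock genes (10260 to 15970 FPKM when fresh, 2923 to 3425 when proliferating), were lower in culture too. Myogenic sums were higher in culture. The stem cell list without Sdc4 was 374 to 613 FPKM when fresh and 1277 to 1349 when proliferating. A list of 6 mature muscle fibre genes was 56.9 to 110 and 555 to 1469 FPKM. Within these lists Chodl, Calcr, Chrdl2, Ckm, Myh4 and Pvalb had lower means in culture. The part of any of these lists in the members' differences was not tested.

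Differentiating against proliferating SMMC had 3 members past the threshold, Fgfr3 and Spry1 higher and Spred2 lower, beside 40.5% of all genes (20.9% higher, 19.6% lower). The list of 6 mature muscle fibre genes summed to between 12780 and 16110 FPKM in the differentiating and 555 to 1469 in the proliferating libraries. Whether the members' values moved with that change of cell state was not tested.

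Proliferating SMMC was also set against MuSC; this comparison shares its libraries with the others. In it, 7 members were lower and Spred2 was higher, beside 68.3% of all genes (42.7% higher, 25.7% lower; 4521 higher and 4649 lower under TMM scaling, against 5645 and 3397). Spry1, higher than MuSC in fresh SMMC, was 2.03-fold lower than MuSC after culture (adjusted p = 0.00383). Fgfr1 was 15.7-fold and Spry4 29.3-fold lower than in MuSC. Fgfr2 did not pass (adjusted p = 0.084), and without MuSC replicate 2 Fgfr3 (0.0942) and Fgfr4 (0.0521) did not either.

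**Figure D2:**
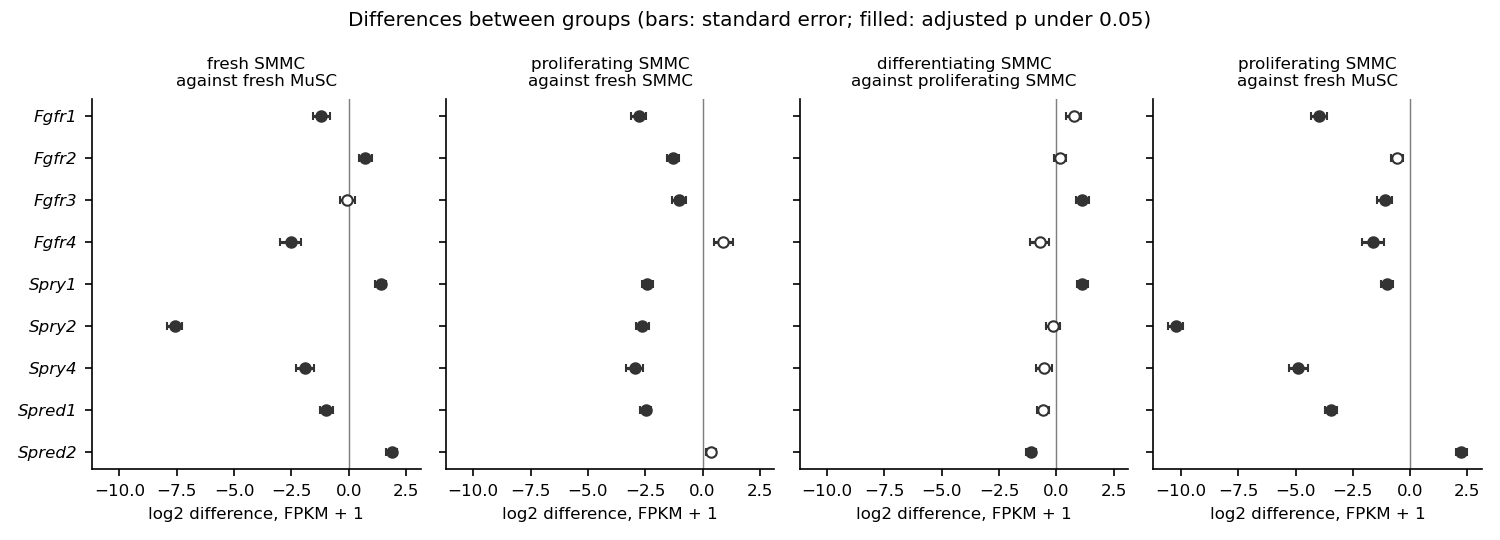
Log2 difference of FPKM + 1 with its standard error for the 9 genes in the 4 comparisons, where filled points passed the adjusted threshold of 0.05. Spry2 lies farthest from 0, at -10.22 for proliferating SMMC against MuSC and -7.59 for fresh SMMC against MuSC, and 7 of the 9 points are filled and left of 0 for proliferating against fresh SMMC. Fgfr2, among those 7, entered the fit through fresh SMMC alone, and without it the count is 6 of 8.

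Genes whose pattern over the 11 libraries lay nearest to Fgfr1, the receptor with the widest range of group means on the log2(FPKM + 1) scale, were Gabarapl1, an autophagy gene, Atp7a, a copper transporter, and Itpkc, an inositol phosphate kinase. Without the added 1 FPKM the order differs, since the highest group mean over the lowest was 46.2-fold for the low Fgfr2 and 16.0-fold for Fgfr1. Their root mean square distances, on centred log2(FPKM + 1), were 0.308, 0.344 and 0.380. Nearest to Spry2 were Nfia, a transcription factor, at 0.490, Lrrc8a, a subunit of a volume-regulated anion channel, at 0.736, and Igsf3 at 0.766. In MuSC these 3 had means of 1137, 676 and 1365 FPKM, against 10.7, 3.87 and 11.3 in fresh SMMC.

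The ligands and their helpers were measured beside the receptors. The counts of each list are read beside the shares of all genes in the same comparison, which were 41.7% higher and 18% lower for fresh SMMC against MuSC, 33.1% and 35.4% for proliferating against fresh SMMC, and 20.9% and 19.6% for differentiating against proliferating SMMC. Of 18 FGF ligands, 7 passed the filter, Fgf1 through fresh SMMC alone and Fgf16 through MuSC alone. Of the other 5, 4 were higher and none lower in fresh SMMC than in MuSC. Fgf7, a ligand of mesenchymal cells, was 9.73 ± 0.95 FPKM in fresh SMMC and 0.842 ± 0.33 in MuSC (log2 difference 2.55, adjusted p = 0.000285). Fgf18 was 5.60 ± 1.3 against 1.79 ± 0.85 (adjusted p = 0.000766). Fgf1, which is outside those 5, was 6.85 ± 3.49 against 0.133 ± 0.04. In proliferating SMMC 3 of those 5 were lower than in fresh SMMC and none higher, with Fgf18 at 0.234 ± 0.18 and Fgf7 at 2.41 ± 1.54 FPKM. Fgf1, given as a description only, stood at 0.0662 ± 0.09 FPKM there. In differentiating SMMC 4 of the 5 were higher than in proliferating SMMC and none lower. Fgf21, a hormone-like FGF, reached 173 ± 58.8 FPKM from 0.739 ± 0.48 (log2 difference 6.63, adjusted p = 4.58e-07), Fgf5 8.07 ± 3.85 from 1.22 ± 1.22 and Fgf9 5.01 ± 3.52 from 0.579 ± 0.37.

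Among 10 receptor partners, proteins that hold or present FGFs at the cell surface, 8 were tested, Fgfbp1 through differentiating SMMC alone. Of the other 7, fresh SMMC had 4 higher and 2 lower than MuSC, with the syndecan Sdc3, the decoy receptor Fgfrl1 and the adhesion protein Flrt3 among the higher. The syndecan Sdc4, named after its values were seen, was 31270 ± 7889 FPKM in MuSC (n = 2) and 483 ± 51.1 in fresh SMMC (n = 3). In proliferating SMMC 2 of the 7 were higher and 2 lower than when fresh, with Sdc3 at 54.1 ± 8.87 FPKM from 14.5 ± 3.39. In differentiating SMMC 2 of the 7 were higher and 1 lower than in proliferating SMMC. Fgfbp1, a carrier that frees FGFs from the matrix, stood at 50.5 ± 1.56 FPKM against 1.02 ± 0.20. Fgfrl1 rose to 50.9 ± 12.6 from 9.78 ± 1.23 and the glypican Gpc1 to 137 ± 43.0 from 38.2 ± 7.96.

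Of 10 adaptors between receptor and Ras, fresh SMMC had 5 higher and 4 lower than MuSC (41.7% and 18% over all genes), with Gab1, Ptpn11 and Shc1 among the higher. Proliferating SMMC had 5 lower and none higher than fresh SMMC: Gab1 fell to 0.505 ± 0.37 FPKM from 12.0 ± 3.3, Sos2 to 1.74 ± 1.02 from 10.8 ± 3.6 and Frs2, the adaptor bound to the receptors, to 1.87 ± 0.46 from 5.99 ± 0.79 (adjusted p = 0.000698). Differentiating SMMC had 2 higher and 1 lower than proliferating SMMC, with Grb2 at 30 ± 2.59 from 7.78 ± 1.74. In the kinase cascade, 10 of 11 genes were tested. Fresh SMMC had 5 higher and 2 lower than MuSC, beside 41.7% and 18% of all genes, with Map2k1 at 72.9 ± 11.9 against 21.0 ± 0.88 FPKM. The 2 lower genes, named after their values were seen, were Nras (22.6 ± 0.49 against 783 ± 206) and Braf (6.34 ± 1.54 against 263 ± 80.2). Proliferating SMMC had 5 cascade genes higher and 1 lower than fresh SMMC, with Map2k2 at 124 ± 5.98 from 53.7 ± 2.11. Differentiating SMMC had 4 higher and 2 lower than proliferating SMMC, with Araf at 128 ± 2.17 from 47.7 ± 8.18.

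The other inhibitors moved partly apart from the Sprouty genes. Of 8 tested, 5 were higher and 2 lower in fresh SMMC than in MuSC. Dusp6, the Erk phosphatase that Erk signalling switches on, was 91.5 ± 1.97 FPKM in fresh SMMC and 20.3 ± 2.1 in MuSC (log2 difference 2.12, SE 0.29, adjusted p = 5.56e-05), and Dusp5 was 58.0 ± 7.22 against 2.82 ± 0.31 (adjusted p = 0.000132). These 2 feedback genes were thus higher in the population where Spry2, Spry4 and Spred1 were lower. Spry1 and Spred2 went the same way as Dusp5 and Dusp6. In proliferating SMMC 5 were lower and none higher than in fresh SMMC, with Dusp6 at 30.4 ± 6.87, the receptor antagonist Il17rd at 0.578 ± 0.70 from 8.70 ± 2.42 and the neurofibromin gene Nf1 at 2.15 ± 0.95 from 8.34 ± 0.86. In differentiating SMMC 2 were higher and 2 lower than in proliferating SMMC, with Dusp6 at 70.1 ± 30.6 and Spred3 at 5.83 ± 1.58 from 2.58 ± 0.48.

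Transcripts known to respond to Erk gave 5 higher and 1 lower of 9 in fresh SMMC against MuSC, beside 41.7% higher and 18% lower of all genes. The immediate early and heat shock list moved the same way, with 8 of 10 genes higher and sums of 10260 to 15970 FPKM in fresh SMMC and 2859 to 3220 in MuSC, and its part in the difference was not tested. Etv1 was 23.7 ± 1.28 FPKM against 0.412 ± 0.01 (log2 difference 4.13, SE 0.32, adjusted p = 5.53e-07), and Etv4 was 4.88 ± 0.74 against 0.125 ± 0.14. In proliferating SMMC 5 were lower and 2 higher than in fresh SMMC, with the immediate early gene Egr1 at 28 ± 10.0 from 1686 ± 318 and Myc at 20.6 ± 3.38 from 75.7 ± 7.80. In differentiating SMMC 4 were lower and 2 higher than in proliferating SMMC, among them Ccnd1 at 34.2 ± 14.5 from 103 ± 3.71 and Etv4 at 3.97 ± 1.95 from 12.7 ± 1.67.

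**Figure D3:**
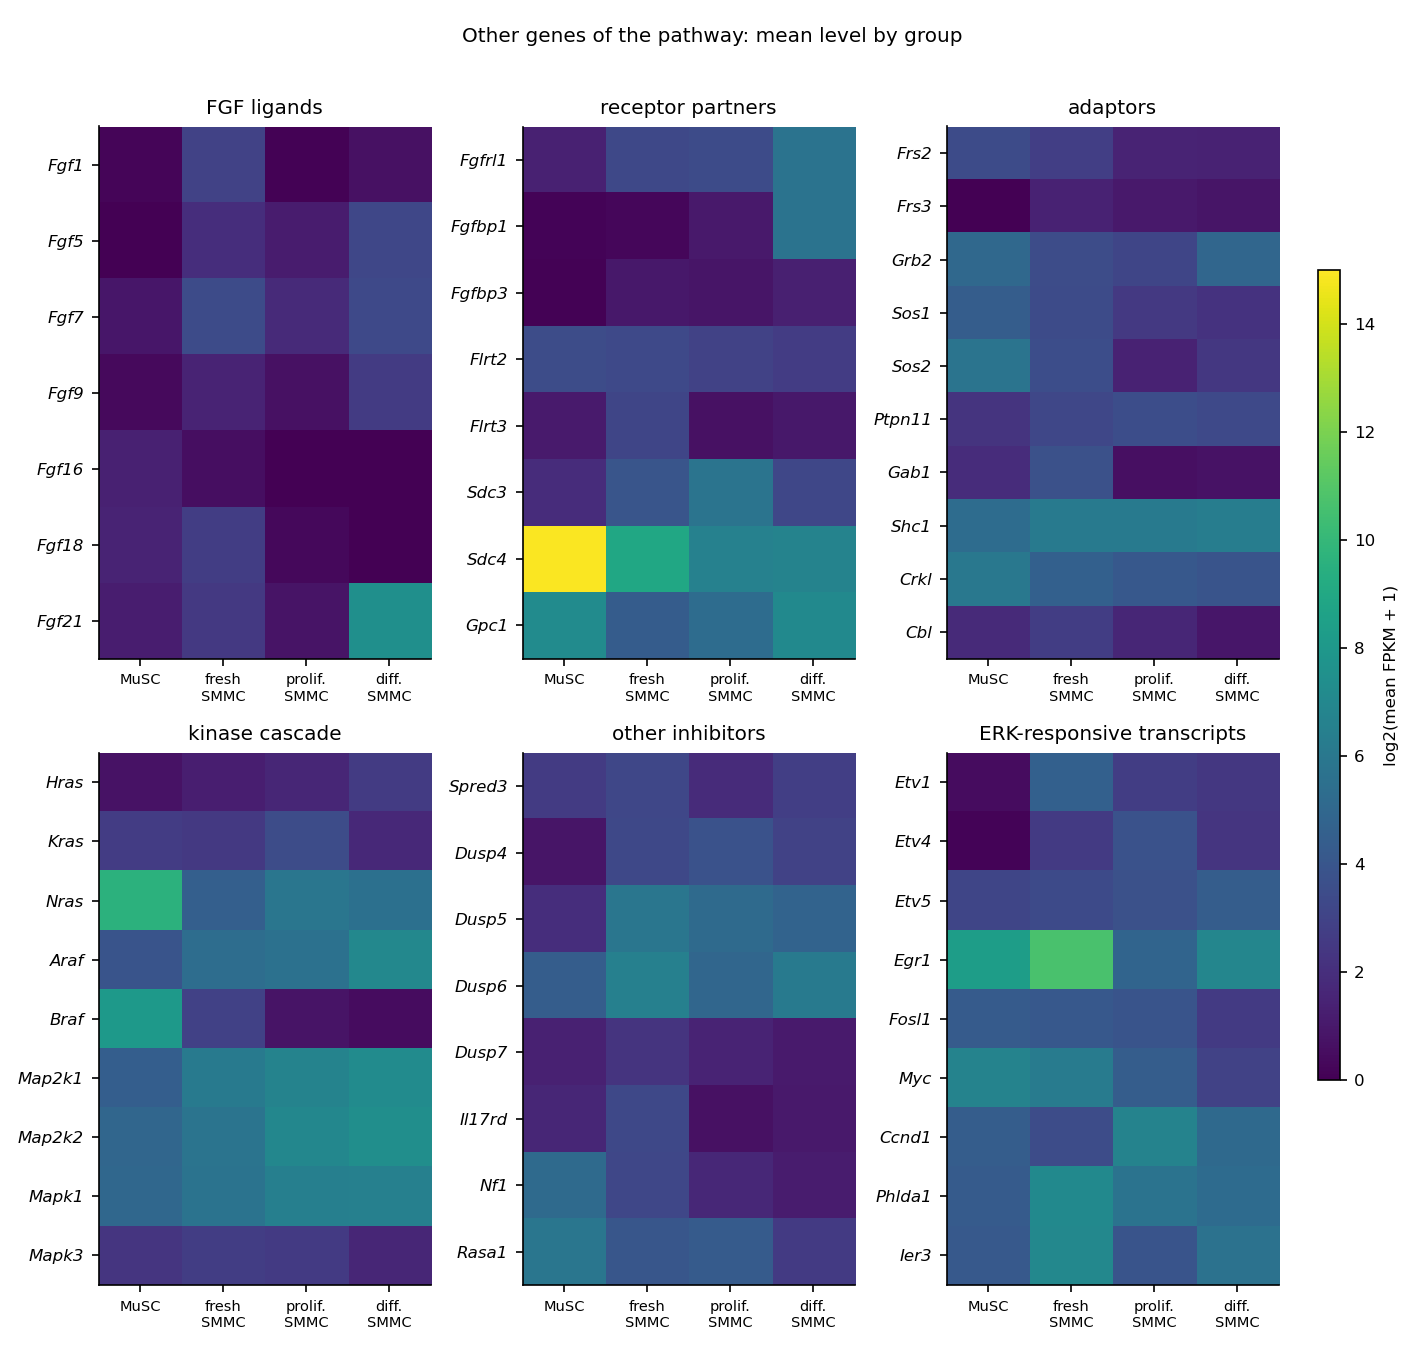
Mean level of other pathway genes tested, as log2(mean FPKM + 1) in colour, by group (columns) and list (panels). In the panel of other inhibitors, Dusp6 is 20.3 FPKM in MuSC and 91.5 in fresh SMMC, and among the ligands Fgf21 is highest in differentiating SMMC, at 173 FPKM.

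The single-cell libraries place the 9 genes among the cell types of the tissue. They held 6144 and 6297 cells with a median of 2516 and 2027 UMIs (counted molecules) per cell, and shared 53 cell barcodes. Cells were clustered without the 9 genes and the pathway genes, and clusters were named from marker genes. This gave 13 named types and 5 unnamed clusters of at least 50 cells. UMIs were summed per type and library and given as counts per 1000000 UMIs of that type (CPM), with no test, since cells are not replicates. The intervals quoted are exact Poisson 95% intervals and cover counting error only. Cells of muscle stem cell type fell mostly in different clusters in the 2 libraries, cluster 14 with 306 of 377 cells in library 1 and cluster 6 with 563 of 576 in library 2. Pax7 was 88.9 and 22.8 CPM in them, and the myogenic factor Myod1 led cluster 6.

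Fgfr1 was highest in muscle stem cell-like cells in both libraries, at 459 CPM (423 to 497) in library 1 and 1056 (1006 to 1109) in library 2. An unnamed cluster led by Pi16 and Dmkn had 456 and 562 CPM, fibro-adipogenic progenitor-like cells 309 and 425, and tenocyte-like cells 270 and 457. The ranges of stem cell-like cells and of the Pi16 cluster overlapped, and within each library both lay above the other types. Pericyte-like cells had 4.84 and 57.5 CPM and smooth muscle-like cells 90.8 and 81.2. B cell-like cells, a type taken as the measure of free RNA, had 5.90 and 20.2 CPM at median depths of 2193 and 1646 UMIs, so the pericyte value of library 1 was no higher than that level. The higher stem cell value of library 2 was seen within cluster 6 as well (451 CPM in library 1, from 71 cells, and 1076 in library 2).

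Fgfr4 had by far its most UMIs in muscle stem cell-like cells, with 79.8 CPM (65.3 to 96.6) and 46.2 CPM (36.1 to 58.3). They held 105 of 115 and 71 of 75 of its UMIs over the 18 types and clusters. No other named type exceeded 6.09 CPM, and B cell-like and tenocyte-like cells had none in either library. Taking 3 counts as the limit that a count of 0 allows, this leaves up to 1.11 and 2.88 CPM in the former and 1.96 and 1.57 in the latter. Fgfr3 was highest in an unnamed cluster led by the arterial genes Gja4 and Gja5, at 22.9 and 37.3 CPM from 3 and 10 UMIs, and in endothelial-like cells, at 21.0 and 12.8 CPM from 60 and 40 UMIs. Every other group had 8 UMIs or fewer of Fgfr3 per library. Fgfr2 was scarcely detected, with 21 and 26 UMIs in all, at 7.82 and 2.61 CPM in tenocyte-like cells and at 0 in both libraries in 10 of the 18 groups.

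Spry1 was highest in pericyte-like cells, at 322 CPM (269 to 381) and 197 (154 to 248), and next in muscle stem cell-like cells, at 176 (154 to 201) and 152 (133 to 173). The ranges of these 2 types did not overlap. Endothelial-like cells had 124 and 97.9 CPM and fibro-adipogenic progenitor-like cells 125 and 87.8, which overlapped each other, while B cell-like cells had 4.43 and 3.84.

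Spry2 was also highest in pericyte-like cells, at 602 CPM (530 to 682) and 906 (811 to 1009), above every other type in both libraries. Natural killer-like cells, a small group of 19 and 32 cells, had 326 and 544 CPM, fibro-adipogenic progenitor-like cells 281 and 508, smooth muscle-like cells 186 and 471, muscle stem cell-like cells 185 and 449 and Schwann-like cells 115 and 517. These 5 ranges overlapped one another. B cell-like cells had 9.22 and 11.5 CPM. In 14 of 18 groups Spry2 was higher in library 2, as was Fgfr1 in 13, whereas Spry4 and Spred2 were each higher in library 1 in 12.

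Spry4 was at 143 CPM (109 to 184) and 123 (89.9 to 165) in pericyte-like cells, above endothelial-like cells (76.4 and 45.9) and smooth muscle-like cells (73.5 and 39.0), which overlapped. Muscle stem cell-like cells had 15.2 and 19.5 CPM from 20 and 30 UMIs. Bulk MuSC had more Spry2 and Spry4 than fresh SMMC, while pericyte-like and smooth muscle-like cells, the types with the most Itga7 (293 and 181, and 173 and 87.7 CPM), had at least as much of both as stem cell-like cells, at 61.6 and 52.1 CPM of Itga7, in each library. Tenocyte-like cells, whose markers had the highest sum of the mesenchymal lists in fresh SMMC, went the other way and had less than stem cell-like cells of Spry2 (112 and 167 CPM) and Spry4 (11.1 and 9.41). Their Itga7 was 0 and 2.61 CPM. Spry1 was lower in bulk MuSC than in fresh SMMC, and lower in stem cell-like than in pericyte-like cells. It was higher in stem cell-like cells than in smooth muscle-like (51.9 and 120 CPM), tenocyte-like (71.7 and 78.9) and fibro-adipogenic progenitor-like cells in both libraries. Smart-seq2 FPKM and 3′ UMI counts are on different scales, and what sets the Spry2 and Spry4 levels apart between the assays was not tested. The 3 genes nearest to Spry2 in bulk, Nfia, Lrrc8a and Igsf3, were at 229 and 137, 47.1 and 123, and 135 and 111 CPM in stem cell-like cells, and Lrrc8a was higher in pericyte-like cells (193 and 205).

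Spred1 had its highest mean of the 2 libraries in muscle stem cell-like cells, at 157 CPM (137 to 180) and 145 (127 to 166). An unnamed cluster led by Sfrp5 (114 and 174) and macrophage-like cells (128 and 151) overlapped them and were above them in library 2. Spred2 was highest in endothelial-like cells (64.9 and 52.6 CPM) and pericyte-like cells (58.0 and 54.8), which overlapped. Stem cell-like cells had 14.4 and 9.11 CPM of Spred2, below both types in both libraries. The bulk order, with Spred1 above and Spred2 below fresh SMMC in MuSC, had a like order between stem cell-like and pericyte-like cells here (Spred1 in the latter was 99.1 and 49.3 CPM). Smooth muscle-like cells had 21.6 and 6.50 CPM of Spred2, from 5 and 2 UMIs, above stem cell-like cells in library 1 and below them in library 2.

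**Figure D4:**
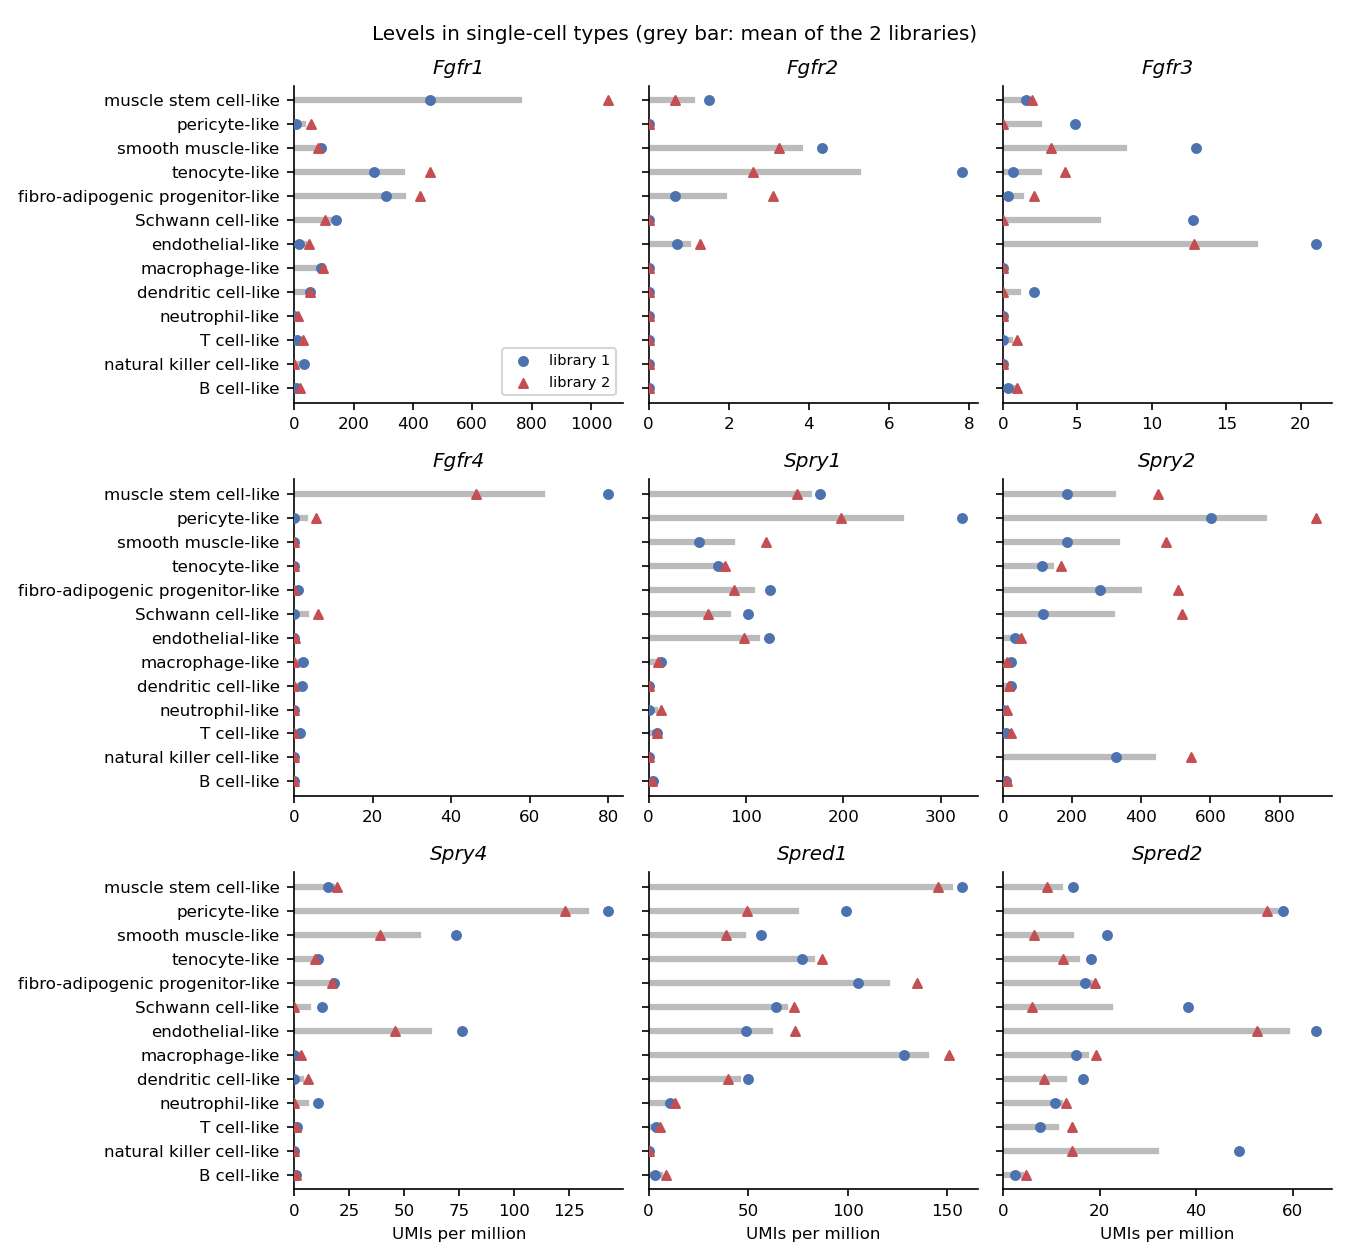
CPM of each of the 9 genes in 13 named cell types of the single-cell libraries (circles for library 1, triangles for library 2, grey bars for the mean of both). Spry1, Spry2 and Spry4 peak in pericyte-like cells, at 322 and 197, 602 and 906, and 143 and 123 CPM, and Fgfr1 and Fgfr4 in muscle stem cell-like cells.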

How the data were processed

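FPKM, 1 per gene symbol, were used for the bulk libraries as the authors deposited them, per the file headers. The authors deposited single-cell data as whole UMI counts. Per the submitters' processing notes, the build was mm10 and the tools included StringTie, HISAT2 2.1.0 and STAR 2.5.1b, and Cell Ranger 2.1.0 or 2.2.0, but no tool is tied to a table. The sources used here give no annotation or strand setting. A further 4 FPKM columns matched no sample and were not used.

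Groups were taken from the sample titles. No 2 libraries of one group had identical values. Genes reaching 1 FPKM in 2 or more libraries entered a limma 3.58.1 fit (R 4.3.3; eBayes with trend) on log2(FPKM + 1), using a mean for each group, with 7 residual degrees of freedom, two-sided. The fit was tested on simulated data. Rn45s, the ribosomal RNA precursor, took 4.11 to 10.2% of the summed FPKM in SMMC libraries and at most 0.0253% in MuSC, so a fit without it was among the alternatives. Its mean was 44110, 41660 and 35720 FPKM in fresh, proliferating and differentiating SMMC and 118 in MuSC. The gap lies between MuSC and all SMMC groups, so every comparison with MuSC carries it, and its source was not tested.

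A filter of 200 genes and 20% mitochondrial counts removed no cell. Scrublet, in scanpy 1.11.5, called 54 cells (0.879%) and 4 cells (0.0635%) doublets. Those were left out, and the share in the second library is too low for the caller to have worked there, so doublets may remain. Clusters (Leiden, resolution 1, 15 neighbours, 30 principal components, 2000 variable genes) were named where at least 60% of a marker list, and 3 genes or more, were up and no other list had more genes among the cluster's 10 leading genes. The names were rebuilt here and are not the authors'.

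The members and gene lists were chosen with earlier results of these data known. The genes named beside the members were up to 3 per list and comparison with the smallest adjusted p, taken from the commoner direction of the list's calls, and the 3 nearest in pattern to the receptor and to the Sprouty or Spred gene of widest range. A gene that this rule selects is not reported here. Promoter sequences came from RefSeq (GRCm38.p6). Fgfr1 and Spry4 were not searched.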

Additional observations from a re-analysis of the deposited data

How the results depend on the processing

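Each count of genes or members past the threshold was recomputed with a pseudocount of 0.1, without the filter, with a filter at 10 FPKM, under TMM and quantile scaling, without Rn45s, with only the groups compared, without the trend, with a replicate block and without each library. Counts of members were also taken without Fgfr2, an alternative chosen after seeing the data. Of 120 such values 117 stayed within 1.5 times the count reported. The others were 5233 genes for fresh SMMC against MuSC and 6030 for proliferating against fresh SMMC under the filter at 10 FPKM, where fewer genes are tested, and 5 members for fresh SMMC against MuSC without MuSC replicate 1. Leaving out 1 library at a time gave 5 to 8 members for fresh SMMC against MuSC, 7 to 8 for proliferating against fresh SMMC, 3 to 4 for differentiating against proliferating SMMC and 6 to 8 for proliferating SMMC against MuSC. Of 514 log2 differences of members, 15 lost and 13 gained their call, and 3 reversed: Fgfr3 between fresh SMMC and MuSC was 0.13 without fresh SMMC replicate 2 and 0.12 without MuSC replicate 2 (range -0.26 to 0.13 over single libraries left out), and Fgfr2 between differentiating and proliferating SMMC was -0.00548 without differentiating replicate 2 (range -0.00548 to 0.27). The cause was not tested. With 1 MuSC library left, that library is assumed to vary like the other groups.

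The labels do not say whether replicate numbers pair the samples. Libraries of the same number had deviations correlated between -0.128 and 0.142. Correlations between different numbers were not computed, so these values cannot decide it. With the replicate block the member counts were 8, 7, 3 and 8 in the 4 comparisons, in the order above, and no call changed.

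Single-cell levels were recomputed under other settings and called moved where they changed by more than the SD of the libraries. At Leiden resolution 0.5, 5 of 108 levels moved, and at 1.5, 2 of 117. With doublet calls kept 4 of 117 moved, and as the mean of values per cell 15 of 117. Levels with 1 library left out lie within that SD by construction, so they are not counted. The FPKM hold no depth, 2 libraries a group limit every MuSC value, and Fgfr2, Fgfr3 and Fgfr4 are too sparse in the single-cell data to rank types outside those named.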

Other observations

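The pathway genes that set fresh SMMC apart from MuSC in bulk were spread over several single-cell types. Etv1 was highest in Schwann-like cells, at 332 and 195 CPM in the 2 libraries, and was 70.1 and 24.6 CPM in pericyte-like, 38.9 and 19.5 in smooth muscle-like and 0.760 and 0 in muscle stem cell-like cells. Dusp6 was 255 and 176 CPM in Schwann-like, 137 and 186 in endothelial-like and 102 and 98.5 in pericyte-like cells, against 10.6 and 28.6 in stem cell-like cells. Gab1 was 38.7 and 30.1 CPM in pericyte-like and 13.7 and 4.56 in stem cell-like cells.

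The ligands differed in where they were found. Fgf7 was 64.5 and 85.2 CPM in fibro-adipogenic progenitor-like and 86.5 and 22.7 in smooth muscle-like cells, and 0 in both libraries in pericyte-like cells. Fgf18 was 31.4 and 26.3 CPM in fibro-adipogenic progenitor-like and 26.7 and 24.6 in tenocyte-like cells. Fgf9 was 28 and 21.4 CPM in tenocyte-like and 25.3 and 15.7 in endothelial-like cells. Fgf1 was 47.6 and 9.74 CPM in smooth muscle-like cells, from 11 and 3 UMIs. Fgf2 was highest, among the types compared here, in the cluster led by Pi16 and Dmkn, at 53.8 and 64.8 CPM. Fgfr1 in that cluster was 456 and 562 CPM, against 459 and 1056 in stem cell-like cells, so the levels were close in library 1 only. Sdc4 was 3353 and 3874 CPM in stem cell-like cells and 89.5 and 159 in pericyte-like cells, the same direction as in bulk. Since Sdc4 was among the markers that named the stem cell-like clusters, that direction is partly set by the naming. Nras (94.2 and 140 against 84.6 and 164) and Braf (35.0 and 24.7 against 41.1 and 68.4) did not show the bulk excess of MuSC. What sets those 2 genes apart between the assays was not tested.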
